A study of Mus musculus with 6 samples.

Results

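The binding of Sox9 to DNA in E12.5 mouse embryos was examined by comparing 1 library precipitated with an antibody to Sox9 (R&D Systems) with 1 library precipitated with IgG, which are 2 of the 6 libraries of the series. The Sox9 experiment was chosen by its sample labels, and its members are the 3722 peaks that the authors called in the Sox9 library against the control. Both libraries came from embryos of the CD1 strain, which the label of the Sox9 library calls wild type and the label of the control leaves without a genotype. The number of embryos behind this pair is not given in the sources used here. The labels give the vertebral column as the source and "E12.5 vertebral column and limb" as the tissue, so limb tissue cannot be told apart from the vertebral column here, and the markers of either tissue cannot be checked because no RNA was measured in this pair. The control is called input in its title and IgG in its description. A further pair of E12.5 libraries of the series was used to place the positions and for a comparison at the end. It consists of a Bapx1 library from embryos with S-peptide tagged Bapx1 and a control with the same S-peptide antibody from wildtype embryos. With 1 library per condition there was no spread between replicates. All intervals below are 95% intervals that cover counting error only, and none of the differences has a replicate check.

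Sox9 is a transcription factor of the HMG-box family and is required for the condensation and differentiation of cartilage precursors, from which the vertebral column and the limb skeleton form. It acts in chondrocytes together with the related factors Sox5 and Sox6, and its known targets include genes of the cartilage matrix such as Col2a1. Sox proteins recognise a short sequence, CAAAG or CAATG after a pair of bases that are each A or T, which is called the Sox motif below. Sox9 can bind either as a monomer at 1 copy or as a dimer at a pair of copies that face each other. Chromatin immunoprecipitation sequencing (ChIP-Seq) counts the DNA fragments that the antibody brings down, each read here as a tag of 35 bp.

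The positions of this pair had to be placed on a genome before any gene could be named. The labels and the methods of the study name mm9. On 5 of 20 chromosomes, tags of the pair lay more than 100 bp beyond the end of the mm9 chromosome, by up to 345975 bp. The last tag was within 1000 bp of the end of the mm9 chromosome on 0 of 20 chromosomes and within 1000 bp of the end of the mm8 chromosome, the preceding assembly, on 17 of 20. By contrast, the Bapx1 library and its control, sequenced in the same study, ended within 1000 bp of the mm9 end on 15 chromosomes. When the tags were matched to those of the Bapx1 pair in windows of 500 kb, 4894 of 5291 windows gave a clear match, and the median displacement was 103000 bp. The displacement in the last clear window of a chromosome was within 50 bp of the difference in length between mm9 and mm8 on 14 of 20 chromosomes. The positions therefore follow mm8 where these measures can tell, and no position was converted. Genes and sequence were read only in stretches whose tags coincided best with mm9 at a displacement of at most 5 bp, called undisplaced, which were 53 blocks with 102.5 Mb. The limit planned was exactly 0, which 28 of the blocks met, and it was widened to 5 bp after the blocks had been seen. They hold 119 of the 3722 peaks, and at all 119 the surrounding tags matched the Bapx1 pair at a displacement of at most 50 bp. The stretches had been chosen by matching these same libraries, so this match is no separate check of them. For stretches displaced by at most 15 kb, which hold 524 peaks with the 119 included, only the neighbourhood of genes was read and the displacement is given with each distance. The other peaks are described by tags alone.

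Sequences are shown first for 5 of the 6 peaks that carried the Sox motif within 50 bp of the summit among the 20 undisplaced peaks with the highest ratio of Sox9 to IgG tags, since they show the motif where it was found. They do not stand for all peaks, as 80 of the 119 undisplaced summits had no motif within 50 bp. The sequence of the remaining one, near Lyzl1, is not printed here. Each is read 5′ to 3′ on the + strand of mm9 over 50 bp on either side of the summit, and capitals mark the Sox motif on either strand.
Peak 123 kb from Ppp1r3a, chr6:14582178-14582278: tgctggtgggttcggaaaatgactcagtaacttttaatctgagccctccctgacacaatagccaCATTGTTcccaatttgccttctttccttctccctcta
Peak 119 kb from a U6 gene, chr6:10671389-10671489: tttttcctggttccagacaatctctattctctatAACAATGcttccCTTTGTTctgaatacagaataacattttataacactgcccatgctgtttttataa
Peak in Usp34, chr11:23353051-23353151: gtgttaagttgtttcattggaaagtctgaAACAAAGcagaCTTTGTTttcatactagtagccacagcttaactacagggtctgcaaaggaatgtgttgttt
Peak in Clvs1, chr4:9360690-9360790: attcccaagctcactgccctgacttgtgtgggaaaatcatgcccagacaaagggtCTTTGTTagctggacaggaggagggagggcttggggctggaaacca
Peak in Lrp5, chr19:3669309-3669409: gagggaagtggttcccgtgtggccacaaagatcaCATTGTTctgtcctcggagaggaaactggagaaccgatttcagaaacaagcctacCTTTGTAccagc
The peaks near U6 and in Usp34 hold motifs that face each other across 5 and 4 bp. Shorter pieces of another pair of undisplaced peaks with facing motifs follow, since this arrangement is counted below.
Peak 22.4 kb from mmu-mir-2134-4, chr13:9811351-9811374: tTACAAAGccagCATTGTTgcatt
Peak 88.1 kb from Gm12025, chr11:19172929-19172957: atatgAACAAAGagcctCATTGTTgggag

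Tags were recounted within 200 bp of each summit and scaled to the total of each library. Sox9 tags ranged from 9 to 436 per peak with a median of 17 and quartiles of 13 and 25. IgG tags ranged from 0 to 303 with a median of 3 and quartiles of 1 and 4. Summed over all peaks, 84488 Sox9 tags stood against 11426 IgG tags, a scaled ratio of 7.71 (95% interval 7.56 to 7.86). The peaks were called on these same libraries, so this ratio describes them and is no test of them. At 5000 bp before and after the summits the ratio was 0.992 (0.965 to 1.02) and 0.986 (0.959 to 1.01), so no excess of Sox9 tags was seen at that distance.

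With 0.5 added to each count, 2390 of the 3709 peaks with at least 10 tags in both libraries together had a ratio of 5 or more. Of 424995 bins of 400 bp across the genome with at least 10 tags, 1.13% reached this ratio, and 1.92% reached it in the opposite direction, with more IgG than Sox9 tags. A ratio of 5 at a single bin is therefore not particular to the Sox9 library, and a share of 64.4% among the peaks is what the calling of peaks selects for. At 3-fold the peaks numbered 3397, beside 3.63% of the bins, and at 10-fold 1068, beside 0.311%. IgG tags were 0 at 309 peaks, and the ratio was under 2 at 25 peaks. The authors' own false discovery rate had a median of 39.1% over the list, and 669 peaks had a rate of 5% or less. These 669 peaks had a ratio of 14.1 (13.5 to 14.7). From the fifth of peaks with the smallest p to the fifth with the largest, the ratio was 13.8, 7.53, 6.11, 5.09 and 4.72, in the order that the peak caller had given them.

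**Figure D1:**
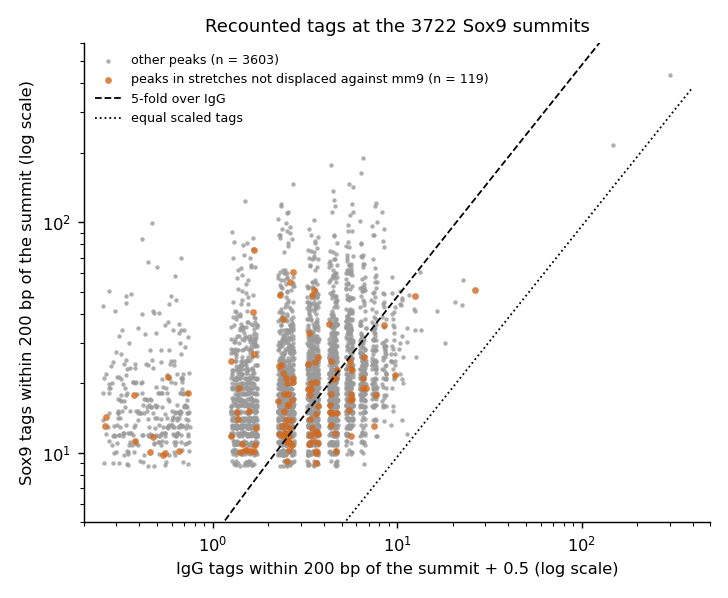
Each point is 1 of the 3722 peaks, with IgG tags plus 0.5 on the horizontal axis and Sox9 tags on the vertical axis, both within 200 bp of the summit, on log scales and with a small random offset sideways and upward so that equal counts can be seen. Most peaks lie above the dashed line of 5-fold, including many of the 119 undisplaced peaks in orange, and the points at the far right are peaks with over 100 IgG tags.

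The 3 peaks with the smallest p, given by their deposited coordinates, were sharply separated from the control. The peak at chr8:90239826-90240376 held 189 Sox9 tags and 6 IgG tags. The peak at chr10:45582212-45582825 held 178 and 4, and the peak at chr8:8619381-8620106 held 164 and 6. The peaks with the most tags were of another kind. The peak at chr17:39451034-39456935 held 436 Sox9 tags but also 303 IgG tags within 200 bp of its summit, and the peak at chr11:108827712-108828329 held 217 and 148, so that their ratios, with 0.5 added, were 1.5 and 1.53. The next by tags was the peak with 189 tags named above. On chromosome 17 the ratio over all peaks was 4.93 (4.55 to 5.34), and on the others it ranged from 6.71 to 9.76. Without the peak of 436 and 303 tags the ratio on chromosome 17 was 7.25 (6.57 to 8.03). When each chromosome was counted without its peak with the most IgG tags, the others ranged from 7.28 to 10.1, and the interval of chromosome 17 overlaps that of chromosome 1, the next at 7.28 (6.75 to 7.85). In all, 32 peaks had more than 9 IgG tags, the level of the top 1% of peaks, and they were left out where peaks were ranked by ratio. Chromosome X held 51 peaks, or 13.5 per 100000 IgG tags of that chromosome, whereas each autosome held between 24.5 and 33.9. The ratio over its peaks was 9.76, the highest of the chromosomes. This scaling does not account for the depth of tags along a chromosome, and the reason for the lower count was not tested.

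The ends of fragments that span a bound site fall on its left on the forward strand and on its right on the reverse strand. In the Sox9 library, 84.6% of the forward tags within 200 bp lay to the left of the summit and 84.2% of the reverse tags to the right, over 3690 peaks. In the IgG library the same shares were 52.7% and 52.1%. The forward and reverse profiles of Sox9 matched best at a distance of 137 bp, and the most frequent distance between a forward and a reverse tag of the same peak was 152 bp. The peak caller had used 87 bp for this distance. The summits were placed on these same tags, so the profile around them is not independent of the peak calling. Both strands took part at most peaks: 3543 of 3722 peaks (95.2%) had between 25% and 75% of their tags on the forward strand, and 3 peaks had tags on 1 strand only.

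**Figure D2:**
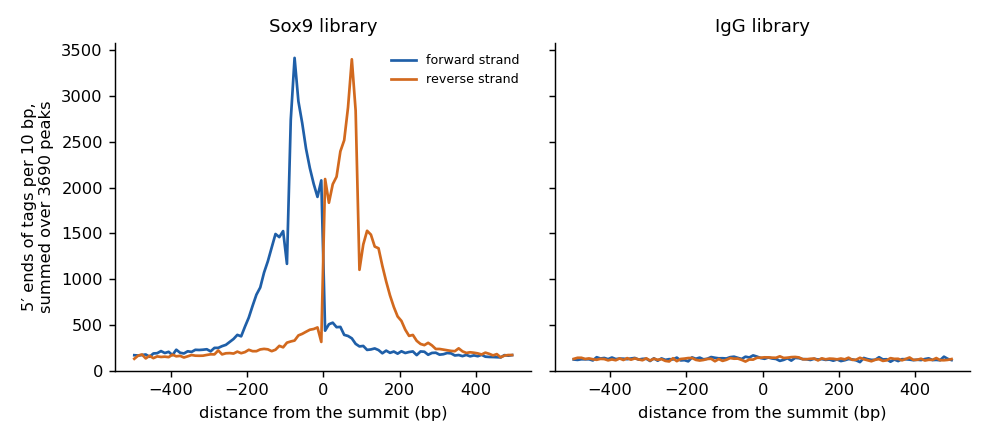
The number of 5′ ends of tags per 10 bp, summed over 3690 peaks, is plotted against the distance from the summit in bp, for forward (blue) and reverse (orange) tags of the Sox9 library (left) and the IgG library (right) on the same axis. The Sox9 strands form a hump on either side of the summit, while the IgG profile is nearly flat.

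At the 119 undisplaced peaks, Sox9 tags ranged from 9 to 76 with a median of 15, and IgG tags from 0 to 26 with a median of 2. Of these peaks 70 had a ratio of 5 or more. The summed ratio was 6.86 (6.12 to 7.70). The Sox motif occurred within 50 bp of the summit in 39 of the 119 peaks, or 32.8% (24.4% to 42.0%). In equally long windows centred 500 bp away it occurred in 30 of 238, or 12.6% (8.67% to 17.5%). Of all 1014274 windows of this length in these stretches, 16.3% held it. The intervals of the summit and of these flanks did not overlap. Under the planned limit of exactly 0, which leaves 62 peaks, the share was 32.3% (20.9% to 45.3%) and that of the flanks 15.3% (9.48% to 22.9%), and there the intervals overlap. The calling of peaks did not use sequence, so the motif is a measure independent of how the peaks were chosen. Among the 38 undisplaced peaks with p of at most 1e-10 the share was 39.5% (24.0% to 56.6%), and among the other 81 it was 29.6% (20% to 40.8%), so a difference between strong and weak peaks was not detectable with these numbers.

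The motif was also close to the summit. Of the motifs within 500 bp, 27 fell in the 50 bp to the left of the summit and 23 in the 50 bp to the right, and every other interval of 50 bp held between 6 and 14. The median distance of the motifs within 50 bp was 22 bp. The motif was searched on both strands, with overlapping copies counted. Among all 1796 words of 6 bases found at the summits, with a word and its reverse complement counted as 1 word, ACAAAG had the largest difference between summits and flanks. It occurred at 30.3% of the summits and 7.77% of the flanks at 500 and 1000 bp. The words ACAATG (24.4% and 6.51%) and GAACAA (21.8% and 4.41%) followed, and each of these 3 words holds the CAA of the Sox motif. The next word, GCAGCC, does not, and occurred at 18.5% of the summits and 4.83% of the flanks. The summits were somewhat richer in G and C, at 46.5% against 41.1% and 43.2% in the windows 500 bp away.

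Facing motifs separated by 3 to 5 bp occurred at 5 of the 119 summits, or 4.20% (1.38% to 9.53%). They occurred in 0 of 238 flanks, which allows a share of up to 1.54% by the exact interval, and in 186 of the 1014274 windows of the stretches (0.0183%). The intervals of summits and flanks overlap slightly, and under the planned limit of exactly 0 there were 2 of 62 summits (3.23%, 0.393% to 11.2%) and 0 of 124 flanks (up to 2.93%). All 5 had a spacing of 4 or 5 bp, and none had facing motifs at another spacing up to 10 bp. Motifs in the same direction or back to back at 0 to 10 bp were found at 0 of 119 summits. The 5 peaks had 14, 21, 15, 25 and 18 Sox9 tags and 0, 2, 1, 1 and 0 IgG tags.

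A scan of every facing pair in the undisplaced stretches, whether in a peak or not, was added after these counts had been seen. At a spacing of 4 bp, 99 pairs had 141 Sox9 tags and 64 IgG tags within 100 bp, a ratio of 2.30 (1.70 to 3.14). At 5 bp, 61 pairs had 122 and 43, a ratio of 2.96 (2.07 to 4.29). At 3 bp the ratio was 1.13 (0.786 to 1.62) over 69 pairs, at 0 to 2 bp it was 1.43 (1.17 to 1.74) over 244 pairs, and at 6 to 8 bp it was 1.27 (1.04 to 1.55) over 242 pairs. Pairs more than 1 kb from any summit still had a ratio of 1.76 (1.27 to 2.46) at 4 bp and 1.98 (1.34 to 2.97) at 5 bp. Over all 191341 motifs more than 1 kb from a summit, with members of pairs included, the ratio was 1.17, beside 1.07 at 1 to 2 kb from them. No interval is given for these ratios, since a tag near several motifs was counted once for each. By form of the motif the ratio ran from 1.12 (ATCAATG) to 1.21 (TTCAAAG), with 1.16 for AACAAAG. The Sox9 fragments held less G and C (43.9%) than those of IgG (46.2%), and the part of this in the ratios was not tested. At 3 to 5 bp together, facing pairs outside peaks gave 1.58 (1.29 to 1.93), back to back pairs 1.38 (1.11 to 1.71) and pairs in the same direction 1.20 (1.06 to 1.36), and none of the last 2 lay within 1 kb of a summit. Back to back pairs at 5 bp alone gave 1.86 (1.15 to 3.07) from 50 and 28 tags, close to facing pairs at 5 bp outside peaks, and at 4 bp they gave 1.12 (0.791 to 1.59). At 3 bp they gave 1.44 (1.01 to 2.05) and at 0 to 2 bp 1.44 (1.19 to 1.75). Pairs in the same direction gave 1.43 (1.15 to 1.77) at 3 bp, 1.12 (0.899 to 1.39) at 4 bp and 1.09 (0.885 to 1.34) at 5 bp. The intervals of several of these other arrangements and spacings overlap those of facing pairs outside peaks at 4 and 5 bp. A few sites carried many of these tags: 5 of 99 pairs at 4 bp and 6 of 61 at 5 bp held 5 or more Sox9 tags, and 0 held 5 or more IgG tags. At each of these spacings 3 pairs lay within 1 kb of the summit of a called peak. Other facing pairs with 5 or more Sox9 tags were 0 of 69 at 3 bp, 0 of 60 at 6 bp and 4 of 90 at 11 bp. Among pairs in the same direction they were 5 of 271 at 21 bp.

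**Figure D3:**
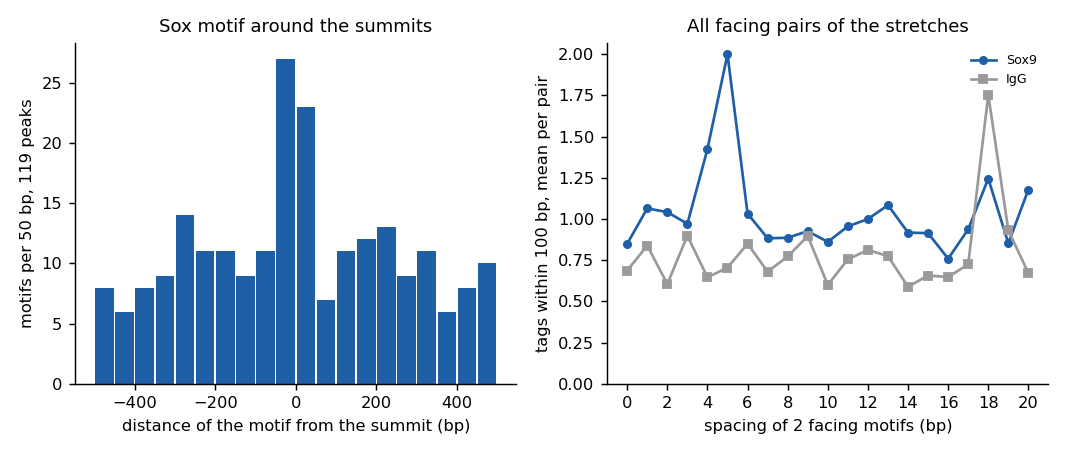
The left panel shows the number of Sox motifs per 50 bp against the distance from the summit in bp over the 119 undisplaced peaks, with 27 and 23 motifs in the bars beside the summit. The right panel shows the mean number of Sox9 (blue) and IgG (grey) tags within 100 bp of every facing pair of motifs against their spacing in bp, where Sox9 reaches 1.42 at 4 bp and 2.0 at 5 bp and the IgG point at 18 bp holds 1 pair with 64 tags.

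The share of undisplaced peaks near transcription start sites (TSS) was close to that of the control tags. Of the 119 summits, 23 (19.3%, interval 12.7% to 27.6%) lay within 5 kb of an annotated TSS, beside 19.6% of the 480075 IgG tags of the same stretches. A further 57 (47.9%, 38.7% to 57.2%) lay more than 25 kb away, beside 48.0% of the IgG tags. The annotation placed 59 summits between genes, 54 in introns, 3 in untranslated regions, 2 in coding exons and 1 in an exon of a non-coding transcript. In a count that did not use the peaks, at the TSS of 673 protein-coding genes of these stretches, the Sox9 library had 9.10 tags on average within 500 bp and the IgG library had 10.5, which were 1.93 and 2.24 times the average of the stretches. Of the 584 TSS with at least 10 tags, 1 (0.171%) had a ratio of 5 or more. That gene, named after its values were seen, was Hus1, a subunit of a checkpoint clamp, with 22 Sox9 and 2 IgG tags. The content of G and C in the first 100 bp of the fragments was 43.9% in the Sox9 library and 46.2% in the IgG library, and its part in the counts at TSS was not tested.

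The 20 undisplaced peaks with the highest ratio were read one by one, which ends at a ratio (with 0.5 added) of 15.3 with the next peak at 14.4. Of these, 9 lay between genes and 11 in introns, 6 were near a TSS (within 5 kb) and 8 farther than 25 kb, and 6 carried the motif within 50 bp. IgG tags were 0 at 11 of them, with between 10 and 21 Sox9 tags there. The strongest stood 123 kb from Ppp1r3a, which encodes a subunit that brings protein phosphatase to glycogen, and lay between genes. It held 76 Sox9 tags and 1 IgG tag, a plain ratio of 79.2 with an interval of 13.8 to 3170 because of the single control tag.

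Several of the 20 lay inside genes. A peak 936 bp downstream of the TSS of Plekhf2, an endosomal protein, held 41 Sox9 tags and 1 IgG tag. A peak in an intron of Lrp5, a co-receptor of Wnt ligands, held 51 and 3, a ratio of 17.7 (5.73 to 88.8), with copies of the motif on either side of its summit. A peak in an intron of Slc25a13, a mitochondrial carrier, held 48 and 2, and a peak in Ppp1r9a, which encodes the actin-binding protein neurabin, held 38 and 2. The peak in Clvs1 held 27 and 1.

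The other strong peaks included one between genes, 45.1 kb from Gm11990 and 97.3 kb upstream of Tns3, a protein of focal adhesions, with 61 Sox9 and 2 IgG tags. Another stood 22.6 kb from Gm11800 and 143 kb from Car8, a relative of the carbonic anhydrases, with 55 and 2. A peak 60.6 kb from a 5S rRNA gene and 75.1 kb from Asb13 held 21 and 0. The peaks in introns of Mtmr3, a phosphoinositide phosphatase, and Usp34, a deubiquitinase, lay 1.63 kb and 4.84 kb from the nearest TSS. They held 18 and 14 Sox9 tags and no IgG tag. The peak nearest to the TSS of Ddi1 lay in an intron of Pdgfd, those of Akr1c19 and A830031A19Rik in introns of these genes, and that near Calml3 between genes. At these peaks only 10 Sox9 tags stood against 0, and the authors' false discovery rate there was between 98.4% and 100%. The remaining ones were 119 kb from a U6 gene (18 tags against 0), near Gm9742 (13 tags against 0), in Tspan12, a tetraspanin (12 against 0), near Gm12071 (11 against 0) and 147 kb from Lyzl1 (25 against 1). The authors' false discovery rate was 90.4%, 82.2% and 79.1% at the peaks of Gm9742, Tspan12 and Gm12071, and between 7.91% and 33.2% at the peaks near U6, Mtmr3, Usp34, Asb13 and Lyzl1.

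Of 153 genes listed for cartilage, regulators, growth plate, limb and other tissues, or named by the study for the vertebral column, 22 lay in stretches displaced by at most 15 kb. Distances run from the outermost annotated start to the deposited position of the summit and were not corrected for displacement. The displacement of the stretch is a known offset, so each distance is off by about that much, in the direction given with it. Counts of peaks within 100 kb use the same deposited positions. Over all 3068 protein-coding genes of these stretches, 25.7% had a Sox9 peak within 100 kb of the TSS. Of the 29 genes of the cartilage matrix list 4 could be read, Col2a1, Matn2, Papss2 and Ucma, and all 4 had a peak within 100 kb. None of the 4 had a peak inside the gene, beside 198 of all 3068 genes that did. With 4 genes these counts are a description. The list of growth plate and osteogenic genes had 8 readable genes of 28, and 1 of these, Sp7, had a peak within 100 kb.

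Papss2 encodes an enzyme that makes the sulfate donor for cartilage proteoglycans, and it had the most peaks of the matrix genes. All 4 lay upstream, at 13.5, 22, 26.4 and 72.9 kb by deposited position. The displacement of 8.5 kb in that stretch puts each of them nearer to the start by that much. They held 34, 49, 13 and 30 Sox9 tags and 2, 3, 0 and 3 IgG tags, and the one with 13 had a false discovery rate of 89.5%. Col2a1, which encodes the main collagen of cartilage, had peaks 20.5 and 26.5 kb upstream, and the displacement of 2.4 kb puts them farther upstream. The nearer held 20 Sox9 and 3 IgG tags (6.11 with 0.5 added to each count) and the farther 36 and 6 (5.85). Across Col2a1 itself with 5 kb at either end, 421 Sox9 and 438 IgG tags were counted, a ratio of 1.0 (0.875 to 1.15), and the 400 bp with the most Sox9 tags held 16 against 8. The cartilage gene Matn2 had a peak 79.1 kb upstream with 30 tags against 1, and the displacement of 14.8 kb puts it farther upstream. Ucma, expressed in early chondrocytes, had one 21.7 kb upstream with 24 against 6, which its displacement puts nearer. The authors' false discovery rate was 25.3% at the nearer and 5.69% at the farther Col2a1 peak, 1.67% at the peak of Matn2 and 21.1% at that of Ucma.

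Among regulators, Sox5 had the most peaks, and its peaks were described further after this count had been seen. It encodes the Sox protein that acts beside Sox9 in chondrocytes, and its stretch was displaced by 8.65 kb. By deposited position it held 12 peaks inside its 954 kb, each at least 34.3 kb from an end of the gene. That is 12.6 peaks per Mb, the highest of the 28 genes of at least 500 kb in these stretches, whose median was 0, a limit of length set after the count for Sox5 had been seen. Shorter genes of the same stretches had more peaks per Mb, such as Sema3d with 4 peaks (19.4) and Slc1a3 with 3 (39.1). Over the chromosomes there were 1.4 peaks per Mb. By number of peaks inside, Frmd4a was next, with 5 in 596 kb. Summed over the 12 peaks there were 427 Sox9 and 36 IgG tags, a ratio of 12.4 (8.79 to 17.9), where a pair of summits 239 bp apart share tags. Of the 12, 8 had a ratio of 5 or more, close to the share of 64.4% over all peaks with at least 10 tags. The strongest held 82 Sox9 tags and 1 IgG tag, followed by 66 and 4, 57 and 1, and 54 and 3. The weakest held 14 and 3. The authors' false discovery rate was 97.6% there, 100% at the peaks with 16 and 4 and with 17 and 3 tags, and 54.6% at 19 and 5. It was between 20.3% and 28.7% at the peaks with 20, 21 and 25 Sox9 tags and at most 1.13% at the rest.

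Distances along Sox5 are by deposited position, and the displacement puts each peak about 8.65 kb farther in the direction of transcription. The 12 peaks were all in the part of Sox5 from 460 to 919 kb after its outermost start, and none was in the first 460 kb. Coding transcripts start 572 kb after the outermost start. Of the peaks 5 lay upstream of this start and 7 lay downstream of it. The nearest upstream, with 36 Sox9 and 2 IgG tags, was at 9.27 kb by deposited position. Most of that distance is the displacement of 8.65 kb, so this peak lies close to the start of the coding transcripts. A further group of 5 peaks stood between 261 and 320 kb past the 3′ end of the gene, with 128 Sox9 and 13 IgG tags together. Across the whole gene the libraries had 6785 and 6619 tags, a ratio of 1.07 (1.03 to 1.11).

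**Figure D4:**
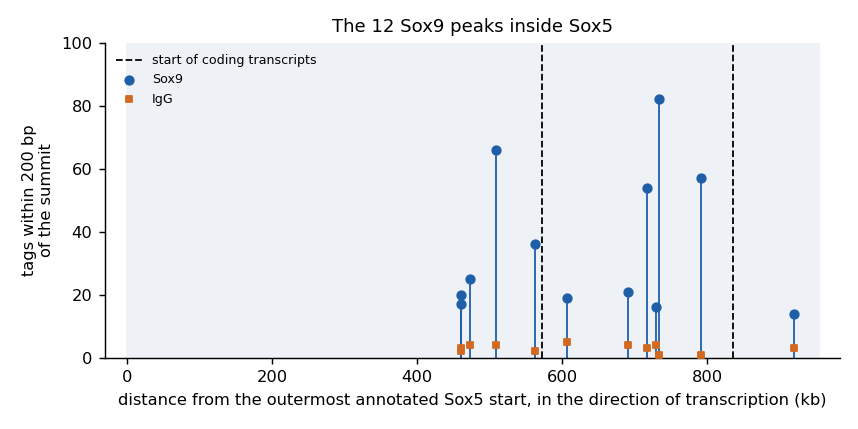
Tags within 200 bp of each of the 12 summits inside Sox5 are plotted against the distance in kb from its outermost annotated start, with Sox9 in blue and IgG in orange, the gene shaded and starts of coding transcripts dashed. Positions of peaks are as deposited, without the displacement of 8.65 kb. All 12 peaks lie beyond 460 kb, with 14 to 82 Sox9 tags against 1 to 5 IgG tags.

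Of the other lists, 1 of 3 readable genes of the list of Sox and chondrogenic regulators (Sox10), 1 of 3 limb genes, 2 of 2 neural genes and 1 of 2 genes of vessels, blood and muscle had a peak within 100 kb, beside 25.7% of all genes, and the last 2 lists stand for tissues other than cartilage. Lists this short are a description only. The displacement was 2.7 kb at Tbx4 and Myh3, 3.2 kb at Sox10, 1.5 kb at Trps1, 3.75 kb at Gata3 and Ucma and none at Foxp2, Dlx5 and Dlx6. It puts the peak of Tbx4 nearer to its start, and the upstream peaks of Sox10, Gata3 and Myh3 farther away. Sp7, a factor required for osteoblasts, had a peak 13.1 kb downstream of its start with 34 Sox9 and 5 IgG tags (6.54), with a displacement of 2.4 kb toward that start. Tbx4, a factor of the hindlimb, had one 33.5 kb downstream of its start with 88 and 7 (12.3), the largest Sox9 count near any listed gene. Trps1, a repressor active in chondrocytes, had 1 peak inside the gene with 13 tags against 0 and a false discovery rate of 56.7%. Sox10, a factor of the neural crest, had 3 peaks within 100 kb, of which the one 34.1 kb upstream held 41 tags against 1. The others held 15 against 4 and 18 against 7, with false discovery rates of 58.73% and 38.35%. No peak lay within 100 kb of Col1a2, Dlx5, Dlx6, Mmp13, Pthlh, Smo, Tnfrsf11b, Lmbr1, Shh or Hba-x. The nearest peak to Dlx5 and Dlx6, homeobox genes of the skeleton, was 202 and 221 kb away with 17 tags against 5. Genes listed for tissues other than cartilage had peaks as well. Foxp2, a factor of the nervous system and other tissues, had peaks 3.06 kb and 562 bp upstream with 48 tags against 3 and 15 against 4. Their false discovery rates were 1.16% and 36.1%. Gata3 had 2 peaks within 100 kb, with 15 tags against 2 and 17 against 6 and false discovery rates of 61.1% and 51.0%. The farther, at 96.4 kb, is at about the limit once the displacement is counted. Myh3, the embryonic myosin of muscle, had a peak 245 bp upstream of its start, which is less than the displacement there. It held 13 tags against 0, with a false discovery rate of 92.0%.

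Peaks lay near other peaks in part. By deposited coordinates, 428 of 3722 peaks (11.5%) had another within 10 kb and 1702 (45.7%) had another within 100 kb. The shares for peaks placed at random were not computed, and summits as close as the 239 bp in Sox5 count as neighbours. The densest 100 kb, on chromosome 8 at a displacement of over 365 kb, held 7 peaks with 199 Sox9 and 25 IgG tags.

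Tags of the other embryo libraries were counted at the 119 undisplaced summits to compare Sox9 sites with the binding of Bapx1, the homeobox factor that the study pairs with Sox9 in the vertebral column. The Bapx1 library was made with an antibody to the S-peptide tag from embryos with tagged Bapx1, and its control used the same antibody on wildtype embryos. Per bp, Bapx1 tags within 200 bp of the summits were 1.93 times (1.81 to 2.06) those at 2 to 5 kb, and control tags were 1.34 times (1.23 to 1.46). Over the same summits Sox9 tags were 8.38 times (7.96 to 8.82) and IgG tags 1.30 times (1.16 to 1.45). Scaled to the totals, Bapx1 with 1015 tags exceeded its control with 578 by a ratio of 1.46 (1.32 to 1.62). The ratio was 1.80 (1.52 to 2.14) at the 38 summits with p of at most 1e-10, 1.54 (1.37 to 1.73) at the 96 summits more than 5 kb from a TSS, and 1.19 (0.945 to 1.5) at the 23 within 5 kb. Of the 20 peaks described above, the one in Ppp1r9a had the most Bapx1 tags, 33 against 6, followed by the one near Asb13 with 21 against 7. The peak near Ppp1r3a with the highest Sox9 ratio had 3 against 2. Fewer Bapx1 than control tags were counted at the peaks of Akr1c19 (3 against 11), Gm9742 (2 against 5), Usp34 (2 against 3) and Clvs1 (1 against 2).

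**Figure D5:**
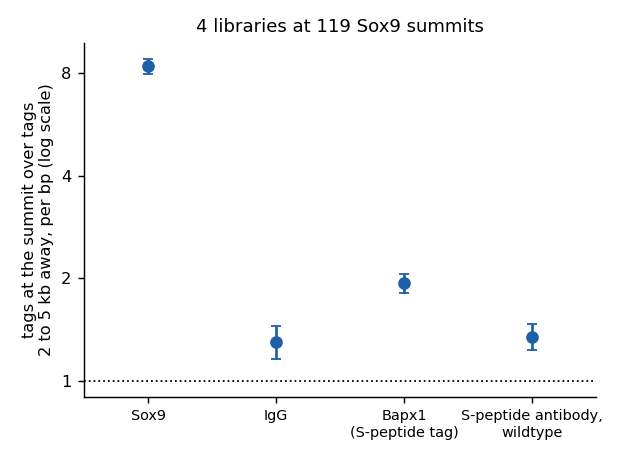
The ratio of tags within 200 bp of the 119 undisplaced Sox9 summits to tags 2 to 5 kb away, per bp and on a log scale, is shown for 4 libraries with 95% intervals of counting error. Sox9 stands at 8.38 and Bapx1 at 1.93, while both controls, at 1.30 and 1.34, are close to each other.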

How the data were processed

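The authors deposited, for each library, the positions of uniquely mapped tags of 35 bp, with no normalization, and for Sox9 a list of peaks that MACS called against IgG at a p cutoff of 1e-05, 1 library a side. Per the file headers the peak list holds counts of tags per peak, a score (the −log10 of p, times 10), an enrichment given as a ratio to the background nearby, and a false discovery rate in percent. The Sox9 library held 12784158 tags on chromosomes and the IgG library 13329191, without repeated positions, and the labels give 14 rounds of PCR for each.

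Displacement was measured by correlating tags in bins of 50 bp with the Bapx1 pair, over up to 8 Mb. Windows needed at least 1000 tags and a best match 1.5 times the next. In blocks of 2 Mb, tags then had to coincide best at a displacement of at most 5 bp. The design had set exactly 0 for this, and the limit was widened after the blocks had been seen, so exactly 0 is given as an alternative. The lengths of mm8 chromosomes came from general knowledge, and no mm8 genome was used. Genes came from GENCODE vM1 and sequence from NCBIM37 (mm9). Intervals for shares and ratios are exact binomial (Clopper-Pearson). Python 3.11.15, SciPy 1.17.1, pandas 2.3.3 and pysam 0.24.0 were used. The search for displacements, ratios and motifs was tested on simulated data.

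The genes and peaks named are the 20 undisplaced peaks with the highest ratio outside the top 1% of IgG tags, every gene of 6 lists or of the study's text in readable stretches, and the 3 peaks each that lead the list by p and by tags. Members and lists were chosen with earlier results of these data known. Alternatives were other windows, scalings, folds, motifs, distances, stretches and stricter peaks. The libraries from NIH3T3 cells and the Bapx1 peaks were not used here.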

Additional observations from a re-analysis of the deposited data

How the results depend on the processing

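With 1 library per condition no replicate could be left out, and no paired analysis was possible because each group has a single library. The ratio at the summits moved from 7.71 to 10.4 within 100 bp, 4.22 within 500 bp, 6.37 within the peak limits, 14.1 at peaks with a false discovery rate of at most 5%, 10.8 at those with p of at most 1e-10 and 8.14 without the top 1% of IgG tags. It stayed within its interval with both other scalings. The peaks past the fold fell from 2390 to 1068 at 10-fold. The motif share moved from 32.8% to 18.5% within 25 bp, to 44.5% with ACAAAG or ACAATG (flanks 16%) and to 20.2% with AACAAT or TACAAT (flanks 10.5%), whose interval overlaps that of the flanks. The share within 5 kb of a TSS, 19.3%, was 12.6% with protein-coding transcripts (IgG tags 11.6%), and the share was 7.56% within 1 kb (5.93%) and 52.1% within 25 kb (52.0%). At peaks with a false discovery rate of at most 5% the motif share was 35.7% (5 of 14), whose interval of 12.8% to 64.9% overlaps that of the flanks (2.27% to 28.2%). Exactly 0 was the planned limit for a stretch, and the limit of 5 bp behind the values of the report was chosen after seeing the data. At exactly 0, 62 of the 119 peaks were left. The motif share was then 32.3% with an interval that overlaps that of the flanks, the facing pairs 3.23%, the share within 5 kb of a TSS 22.6% and the ratio of Bapx1 to its control 1.59 (1.38 to 1.84). Under the other rules for the stretches there were between 106 and 145 peaks and a motif share between 31.5% and 33.6%. The ratio of Bapx1 to its control was 1.53 within 100 bp and 1.35 within 500 bp. Peaks with few tags and no IgG tag have only a lower bound.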
